A study of Mus musculus with 6 samples.

Results

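The receptors of transforming growth factor-β (TGF-β) and the Smads that carry the signal inwards were described in flat cultures of mouse airway epithelial organoids (2D-MAOs) given TGF-β1 or not. The 10 genes were Tgfbr1, Acvr1b, Acvr1, Acvrl1, Tgfbr2, Tgfbr3, Eng, Smad2, Smad3 and Smad4, found on the array through the RefSeq accession of each probe. They held 18 of 56599 probes and were 10 of 22910 genes named on the array. All 10 genes and all 18 probes passed the filter on dim signal, under which a probe had to be marked well above background on at least 3 of 6 arrays, and 14345 genes were tested in all.

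The organoids were grown from the airway epithelium of C57BL/6 mice, taken apart and plated on a flat surface in organoid medium. On day 3 the medium was replaced by one lacking noggin, which blocks BMP ligands, and A83-01, which inhibits the kinases of Tgfbr1, Acvr1b and Acvr1c, and this change was shared by both groups. From then until collection on day 7, 3 cultures received TGF-β1 and 3 control cultures did not. Total RNA was hybridised to 1-colour mouse arrays, 1 array a sample, on a single slide. The study's methods call the 3 arrays of a group biological replicates. Whether these were separate animals or separate cultures of shared organoids is not given in the sources used here, and the p-values measure the spread between these samples.

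TGF-β binds a type II receptor, Tgfbr2, which then recruits and activates the type I receptor kinase Tgfbr1. The active kinase phosphorylates Smad2 and Smad3, which join Smad4 and enter the nucleus to change transcription, while Acvr1 and Acvrl1 are type I receptors that act mainly on the Smads of BMP signalling. Tgfbr3 (betaglycan) and Eng (endoglin) have no kinase and present ligand to the others. In airway epithelium the pathway is known for restraining growth and for driving extracellular matrix production.

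No receptor or Smad gene passed the test (0 of 10 at an adjusted p under 0.05, limma with Benjamini-Hochberg adjustment over all genes tested), where 2.04% of genes did, and with a minimum of 2-fold added the count was again 0 of 10 beside 1.38% of genes (1.19% higher). At an unadjusted limma p under 0.05 the count was 3 of 10, all with higher means after TGF-β1 (Tgfbr1, Acvr1 and Acvrl1), beside 22.2% of genes in either direction, and the methods' t-test gave 0 of 10 after the same adjustment. On 4 of 10 genes the arrays of the groups did not overlap, beside 26.4% of genes, with TGF-β1 above control for Tgfbr1, Acvr1 and Acvrl1 and below it for Smad2. The median log2 fold change over the 10 genes was 0.19, against -0.03 over all genes tested. With each array scaled to its 75th percentile in place of quantile normalization, the median of the 10 genes was 0.04 and that of all genes -0.09.

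The arrays themselves differed little in detection, with 54.96% to 59.03% of transcript spots well above background and none saturated. TGF-β1 replicate 3 stood apart from the rest of its group. Its Euclidean distance over the genes tested was 61.12 and 62.27 to TGF-β1 replicates 1 and 2, which lay 32.32 from each other, and 54.4 to 60.89 to the controls. Without that array 9.08% of genes passed as higher and 6.27% as lower, against 1.63% and 0.404% with it, and 3 of the 10 genes passed as higher. Replicate 3 of each group lay in the second row of the slide and the other 4 arrays in the first. All 9 epithelial markers, Epcam, Cdh1 and Krt8 among them, were well above background on all 6 arrays.

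**Figure D1:**
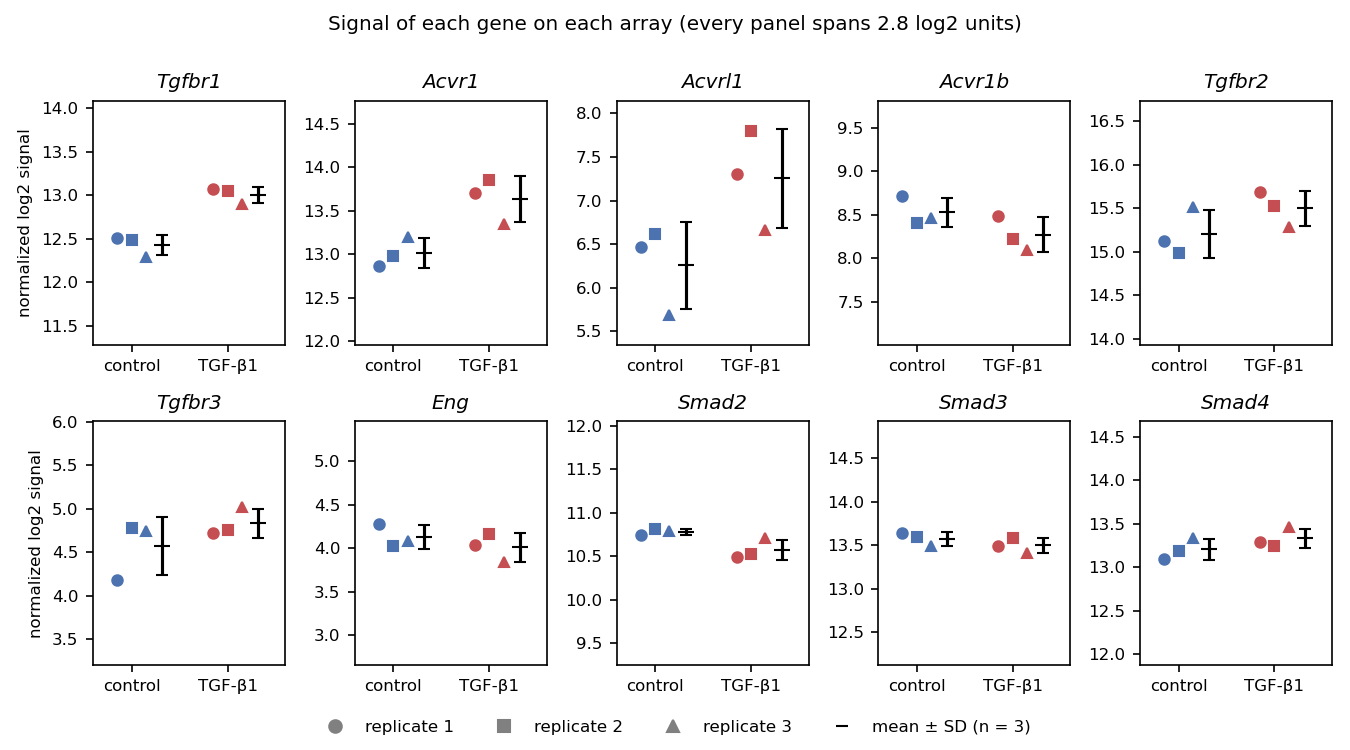
Normalized log2 signal (y axis) of the 10 genes on each array, with control in blue, TGF-β1 in red, the replicate number as the shape, and the mean ± SD of 3 arrays beside each group. All 3 TGF-β1 arrays lie above all 3 controls for Tgfbr1, Acvr1 and Acvrl1 and below them for Smad2, and TGF-β1 replicate 3 is the lowest of its group for each of Tgfbr1, Acvr1 and Acvrl1.

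Tgfbr1 encodes the type I kinase that receives TGF-β, and it had the smallest p of the 10 genes. Its log2 signal was 12.50, 12.48 and 12.30 on the control arrays and 13.07, 13.04 and 12.90 on the TGF-β1 arrays. The groups were well separated, and the lowest TGF-β1 array lay above the highest control. The mean was 12.43 ± 0.11 without and 13.00 ± 0.09 with TGF-β1 (SD, n = 3 each). That difference of 0.58 on the log2 scale (SE 0.11) is 1.49-fold, with a 95% interval of 1.24 to 1.80. In limma the unadjusted p was 0.001545 and the adjusted p 0.06046. Other limma fits of all 6 arrays fell on both sides of the threshold. Adjusted p was under it with the slide row as a block (0.04454), normexp background correction (0.03505), a trended robust variance (0.02403) and array weights (0.006587). It was over it with scaling to the 75th percentile (0.1315), the mean of the gene's probes (0.1216) and the replicate number as a block (0.1019). It was also over it without the filter (0.09236) and with only probes well above background on all 6 arrays (0.05467). The methods' t-test gave an adjusted p of 0.1608. The exact two-sided permutation test over the 6 arrays gave p = 0.1, the smallest that 3 against 3 can give.

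The second probe of Tgfbr1 showed a log2 fold change of 0.37 (SE 0.18), also with every TGF-β1 array above every control. Without TGF-β1 replicate 3 the gene passed (log2 fold change 0.63, adjusted p = 0.02376, limma), whereas without any of the other 5 arrays it did not, with adjusted p between 0.08545 and 0.2459. The difference was 0.56 within the first slide row and 0.60 within the second, where 1 array stood against 1 and no test could be made. Scaled to the 75th percentile the difference over all 6 arrays was 0.41.

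Acvr1 encodes ALK2, a type I receptor for BMPs and activins. The control arrays gave 12.87, 12.98 and 13.20 and the TGF-β1 arrays 13.71, 13.85 and 13.34, so the groups did not overlap, although TGF-β1 replicate 3 lay close to control replicate 3. The log2 fold change was 0.62 (SE 0.17), 1.54-fold with an interval of 1.17 to 2.02, at an adjusted p of 0.1167 in limma. Its second probe gave 0.59 (SE 0.18) with the same order of the groups. The difference was 0.86 within the first slide row and 0.15 within the second, which holds replicate 3 of both groups. It was 0.76 without TGF-β1 replicate 3, where the gene passed (adjusted p = 0.02288), and 0.51 to 0.71 without any other array, where it did not.

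Acvrl1 encodes ALK1, a type I receptor best known from endothelial cells. Its log2 signal was 6.46, 6.62 and 5.69 in the controls and 7.30, 7.80 and 6.66 after TGF-β1. The highest control and the lowest TGF-β1 array nearly touched, and replicate 3 was the lowest of both groups. On the log2 scale the difference was 1.00 (SE 0.35), 2.00-fold with a wide interval of 1.12 to 3.54 and an adjusted p of 0.1758. Its dimmer probe, well above background on 1 of 3 control arrays, gave 1.08 (SE 0.39) with overlapping groups. The gene passed without TGF-β1 replicate 3 (log2 fold change 1.29, adjusted p = 0.04353) and failed without any other array (adjusted p 0.2407 to 0.4391). With all 6 arrays and the slide row as a block it passed as well (adjusted p = 0.04066). With normexp background correction the difference was 0.63 (adjusted p = 0.1264).

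The endothelial markers were read beside Acvrl1 because fewer cells of a type and less RNA per cell cannot be told apart in bulk RNA. Of 12 such genes, 3 (Pecam1, Esam and Egfl7) were well above background on all 6 arrays, and 6 (Cdh5, Kdr, Tek, Tie1, Emcn and Cldn5) on none. Their summed signal was 820.2 to 879.5 in the controls and 867.5 to 1365 after TGF-β1, lowest of the treated arrays in replicate 3. Egfl7 made up 78.8% to 88.5% of that sum. None of the 3 passed, with log2 fold changes of 0.47 for Egfl7, 0.13 for Pecam1 and -0.19 for Esam and overlapping groups for each, and their part in the Acvrl1 result was not tested.

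Acvr1b encodes ALK4, the type I receptor for activin and nodal, which phosphorylates the same Smads as Tgfbr1. Its arrays read 8.71, 8.41 and 8.46 in the controls and 8.49, 8.22 and 8.10 after TGF-β1. The groups overlapped. Acvr1b differed by a log2 fold change of -0.26 (SE 0.15) with a 95% interval of -0.61 to 0.09 and an adjusted p of 0.3328. Acvr1b and Acvrl1 are adjacent genes on chromosome 15 in the RefSeq annotation of GRCm38.p6.

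The promoters of 4 of these receptors are shown because the type I genes Tgfbr1 and Acvr1 stood higher on each TGF-β1 array, while the arrays of Acvr1b and Tgfbr2 overlapped between groups. Each run is the 250 bases before the transcription start from RefSeq (GRCm38.p6), 5′ to 3′ on the strand of the gene, and capitals mark GGGCGG on either strand, the GC box recognised by Sp1-family factors.
Tgfbr1 promoter, chr4:47352972-47353221, + strand: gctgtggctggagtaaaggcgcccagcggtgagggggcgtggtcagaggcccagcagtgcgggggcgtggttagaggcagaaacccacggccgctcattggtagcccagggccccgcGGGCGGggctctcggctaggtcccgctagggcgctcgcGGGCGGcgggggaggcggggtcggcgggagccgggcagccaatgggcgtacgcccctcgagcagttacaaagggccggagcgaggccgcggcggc
Acvr1 promoter, chr2:58566829-58567078, - strand: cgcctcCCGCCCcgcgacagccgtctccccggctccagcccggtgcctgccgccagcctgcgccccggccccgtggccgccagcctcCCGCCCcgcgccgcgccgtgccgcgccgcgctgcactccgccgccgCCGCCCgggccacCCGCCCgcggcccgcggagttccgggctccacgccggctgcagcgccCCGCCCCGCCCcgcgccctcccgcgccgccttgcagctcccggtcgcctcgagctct
Acvr1b promoter, chr15:101173822-101174071, + strand: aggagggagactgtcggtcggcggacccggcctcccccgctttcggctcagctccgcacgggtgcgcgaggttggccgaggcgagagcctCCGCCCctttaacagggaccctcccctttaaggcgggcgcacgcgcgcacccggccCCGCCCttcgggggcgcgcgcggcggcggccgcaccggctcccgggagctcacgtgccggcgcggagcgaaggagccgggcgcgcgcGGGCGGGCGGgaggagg
Tgfbr2 promoter, chr9:116175364-116175613, - strand: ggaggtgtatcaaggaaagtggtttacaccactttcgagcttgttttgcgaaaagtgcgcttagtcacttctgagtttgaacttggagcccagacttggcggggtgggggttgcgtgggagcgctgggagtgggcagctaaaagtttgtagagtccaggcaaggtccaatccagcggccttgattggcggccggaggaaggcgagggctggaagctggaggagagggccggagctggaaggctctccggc

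The GC box occurred 6 times before Acvr1, 4 times before Acvr1b and 2 times before the start of Tgfbr1 shown, and 0 times before Tgfbr2, with overlapping matches counted. At least 1 was present in 32.7% of 32851 windows of the same length. The Smad-binding element CAGAC, searched on both strands, was found 1 time before Tgfbr2 and 0 times in the other 3 windows shown, beside 42.2% of all windows with a match. Neither the Smad palindrome GTCTAGAC nor the AP-1 site TGANTCA was present in any of the 4. The windows of Tgfbr1, Acvr1 and Acvr1b were 74.8%, 85.6% and 78.8% G or C, and that of Tgfbr2 58.4%. RefSeq lists a further start of Tgfbr1, and the window before it (chr4:47385966-47386215) held 0 GC boxes and 1 CAGAC and was 52.8% G or C, so the contrast with Tgfbr2 rests on the start shown. A RefSeq window was matched for 6 of the 10 genes, the others of the 6 being Smad3 and Eng. The Smad3 window held 2 GC boxes and 0 CAGAC, and the Eng window 0 GC boxes and 2 CAGAC. GC boxes thus also lay before Acvr1b and Smad3, whose arrays overlapped between the groups.

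Tgfbr2 encodes the type II kinase that binds TGF-β first. The control arrays gave 15.12, 14.98 and 15.51 and the TGF-β1 arrays 15.68, 15.53 and 15.28. Control replicate 3 was above TGF-β1 replicate 3, so the groups overlapped. The difference in log2 signal was 0.29 (SE 0.18), with an interval of -0.13 to 0.71 and an adjusted p of 0.3488. It was 0.55 within the first slide row (adjusted p = 0.0317, where 26.8% of all genes passed in either direction) and -0.23 within the second, and 0.02 after scaling to the 75th percentile.

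The ratio of receptor signals within each array leaves out the scaling between arrays, and only its change can be read, since probes differ in brightness. The log2 ratio of Tgfbr1 to Tgfbr2 went from -2.84 ± 0.30 to -2.45 ± 0.10 (SD, n = 3 each), a change of 0.39 with no overlap. The ratio of Tgfbr1 to Acvr1b moved by 0.62, Acvr1 to Acvr1b by 0.64, Acvr1 to Tgfbr2 by 0.41 and Acvrl1 to Acvr1b by 1.32, each without overlap. These 5 were among 8 pairs chosen after their values were seen, and each had an exact two-sided permutation p of 0.1, or 0.16 after Benjamini-Hochberg adjustment over the 8.

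Both co-receptors were dim. Tgfbr3, which hands TGF-β to the type II receptor, had raw spots 1.54 to 1.96 times the local background in the controls and 1.83 to 2.08 times after TGF-β1. Its log2 signal was 4.19, 4.79 and 4.74 against 4.72, 4.76 and 5.03, overlapping, with a log2 fold change of 0.26 (SE 0.19, interval -0.18 to 0.71, adjusted p = 0.4236, limma). Without control replicate 1 this value was 0.07, and with normexp background correction 0.08. Eng, an accessory receptor abundant in endothelium, was well above background on 1 of 3 control and 2 of 3 TGF-β1 arrays. Its values of 4.28, 4.02 and 4.09 against 4.04, 4.17 and 3.84 overlapped. The log2 fold change was -0.12 (SE 0.13, interval -0.43 to 0.19, adjusted p = 0.6021), and 0.05 after scaling to the 75th percentile. Whether either co-receptor changed within its interval is not settled by these arrays.

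**Figure D2:**
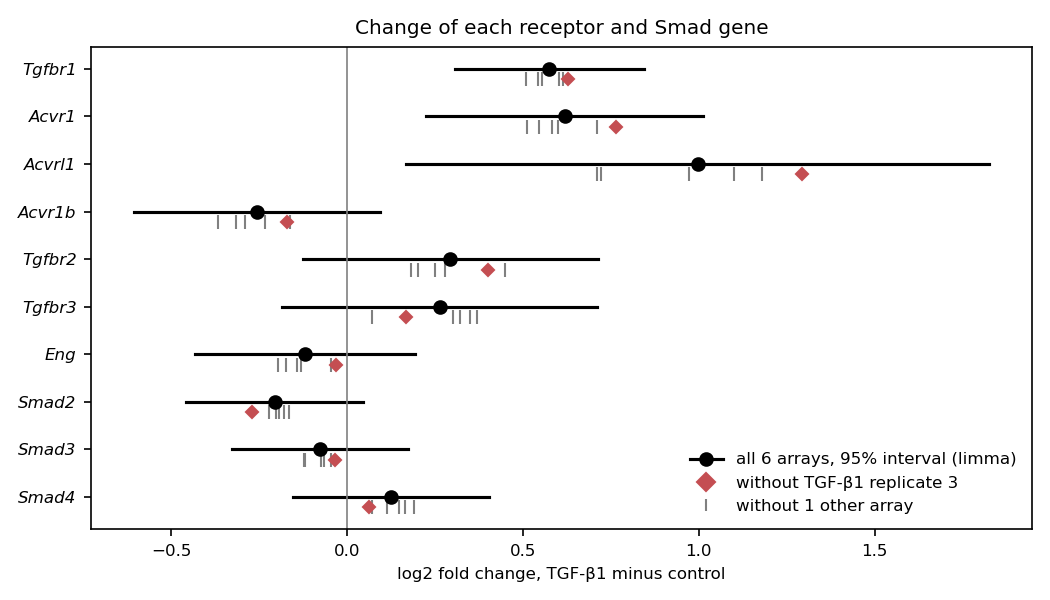
Log2 fold change (x axis, TGF-β1 minus control) of the 10 genes, with the 95% limma interval over all 6 arrays as a line, the value without TGF-β1 replicate 3 as a red diamond and the values without each other array as ticks. The intervals of Tgfbr1, Acvr1 and Acvrl1 lie above 0, and the red diamond is the highest of the leave-one-out values for each of these genes.

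Neither of the receptor-activated Smads passed the test. Smad2 read 10.75, 10.81 and 10.79 in the controls and 10.49, 10.52 and 10.70 after TGF-β1. Each TGF-β1 array was below each control, with replicate 3 nearest. The log2 fold change was -0.21 (SE 0.11, interval -0.46 to 0.05), at an adjusted p of 0.2953 in limma, and -0.29 after scaling to the 75th percentile (adjusted p = 0.2175). The methods' t-test gave an unadjusted p of 0.03969, and the exact permutation p was 0.1. A second Smad2 probe moved the other way, by 0.09 (SE 0.12), with overlapping groups.

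Smad3 gave 13.64, 13.60 and 13.49 against 13.49, 13.59 and 13.42. The groups overlapped through control replicate 3, which lay within the range of the TGF-β1 arrays, while control replicates 1 and 2 lay above it. The log2 fold change was -0.08 (SE 0.11), with an interval of -0.33 to 0.17, which is 0.797 to 1.13 times the control level, and an adjusted p of 0.6841. After scaling to the 75th percentile Smad3 was at -0.27 (adjusted p = 0.23). The second probe gave -0.19 (SE 0.16). The within-array ratio of Smad2 to Smad3 moved by -0.02 and that of Smad3 to Smad4 by -0.21, both with overlap.

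Smad4, the partner shared by the TGF-β and BMP Smads, read 13.10, 13.18 and 13.34 in the controls and 13.29, 13.25 and 13.46 after TGF-β1 on its brightest probe. These arrays overlapped, at a log2 fold change of 0.12 (SE 0.12, interval -0.15 to 0.40, adjusted p = 0.5424). After scaling to the 75th percentile the value was -0.06. Its 4 probes did not move together. The second brightest gave 0.03 (SE 0.14), whereas the dimmer pair gave -0.40 (SE 0.15) and -0.45 (SE 0.19).

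The values of the dimmer pair were seen before they were singled out here. The first read 8.16, 8.03 and 7.97 against 7.52, 7.55 and 7.90 and the second 8.05, 7.76 and 7.84 against 7.29, 7.22 and 7.80. On both, TGF-β1 replicates 1 and 2 were well below the controls and replicate 3 was among or just under them. Adjusted over all probes tested, the limma p was 0.153 and 0.1852. Without TGF-β1 replicate 3 the differences were -0.52 and -0.63, in that order, and adjusted p was 0.03843 and 0.03252. The 4 probes carry the same RefSeq accession, and which part of the transcript each one reads was not analysed here.

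Leaving out 1 array at a time changed the values of the genes with small differences. The log2 fold change ran from -0.37 to -0.16 for Acvr1b, 0.18 to 0.45 for Tgfbr2, 0.07 to 0.37 for Tgfbr3, -0.20 to -0.03 for Eng, -0.27 to -0.17 for Smad2, -0.12 to -0.03 for Smad3 and 0.06 to 0.19 for Smad4. Each kept its sign, and none of these 7 passed.

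**Figure D3:**
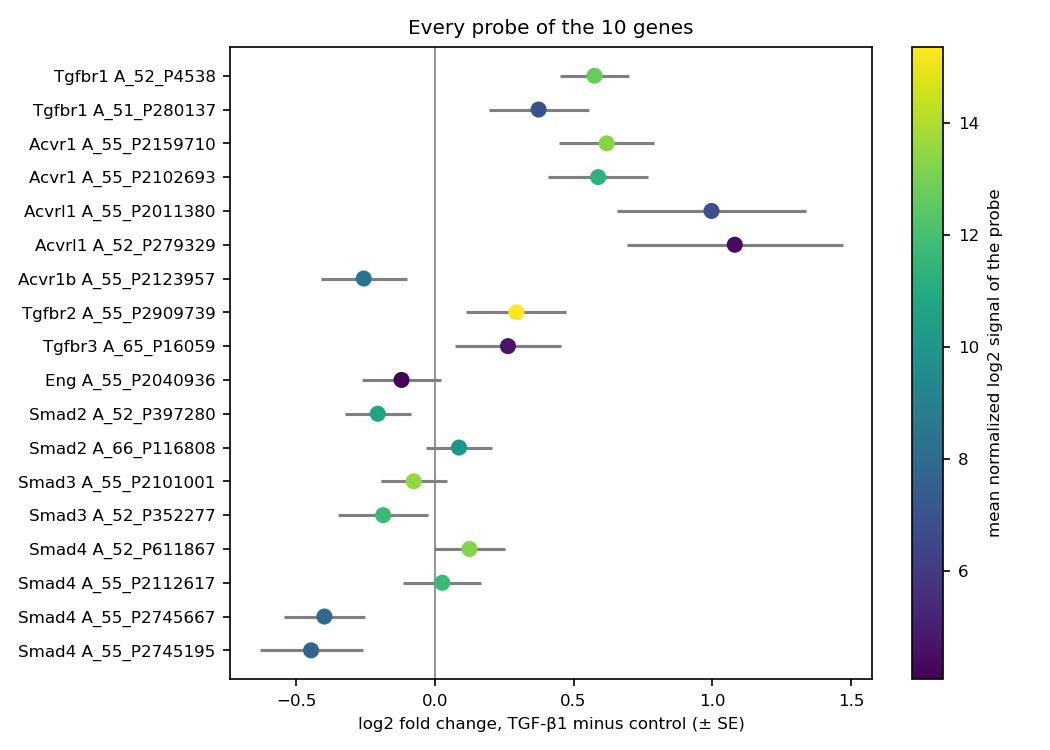
Log2 fold change ± SE (x axis, TGF-β1 minus control) of all 18 probes of the 10 genes, coloured by mean normalized log2 signal. The probe pairs of Tgfbr1, Acvr1 and Acvrl1 lie to the right of 0, while the probes of Smad2 and of Smad4 fall on both sides.

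Genes around the receptors were read from lists chosen with earlier results of these data known, so their directions are not independent evidence. The counts of each list stand beside 1.63% of all genes tested that passed as higher and 0.404% as lower. Among the other receptors of the family 0 of 7 passed, with a median log2 fold change of 0.23. The largest values were 0.69 (SE 0.22, adjusted p = 0.1536, limma) for Bmpr2, a type II receptor for BMPs, and -0.29 (SE 0.35, adjusted p = 0.6409) for Acvr1c, a type I receptor inhibited, like Tgfbr1, by A83-01. Of the BMP-side and inhibitory Smads, 4 of 5 were tested and 0 passed, with a median of 0.19. Smad7, an inhibitory Smad that blocks the type I receptor, was above control on each array at 0.82 (SE 0.18, adjusted p = 0.07466), and Smad6, which acts mainly on BMP signalling, gave -0.16 (SE 0.22, adjusted p = 0.6721).

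Receptor partners and ligand-presenting proteins contributed 11 tested genes of 13, of which 1 rose and 0 fell. This was Lrrc32 (GARP), which anchors latent TGF-β at the cell surface. Its log2 signal was 4.20, 4.45 and 4.26 in the controls and 7.01, 6.76 and 6.19 after TGF-β1, with no overlap. The log2 fold change was 2.35 (SE 0.22, adjusted p = 0.006421), and the call held without any single array. With normexp background correction the difference was smaller, at 1.00 (adjusted p = 0.01271). The most negative value was that of the BMP co-receptor Rgmb, at -0.46 (SE 0.13, adjusted p = 0.1325), and the median of the list was 0.29.

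None of the 12 ubiquitin ligases, deubiquitinases and phosphatases that act on the receptors and Smads passed in limma, and their median was -0.01. At an unadjusted p under 0.05 there were 2 of 12, 1 in each direction, beside 22.2% of all genes. The outer values were 0.49 (SE 0.23, adjusted p = 0.2564) for the deubiquitinase Usp11 and -0.28 (SE 0.11, adjusted p = 0.2229) for the ubiquitin ligase Wwp1. Of 11 nuclear partners tested of 12, 2 rose and 0 fell, around a median of 0.22. Pmepa1, which binds and retains the Smads, rose by 1.31 (SE 0.12, adjusted p = 0.006193) and the co-repressor Tgif1 by 0.92 (SE 0.13, adjusted p = 0.02257). The call of Tgif1 was lost without any array other than TGF-β1 replicate 3, with adjusted p between 0.05401 and 0.1103.

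The genes that TGF-β switches on through Smad3 were read last. Of 13 tested, 5 rose and 0 fell, beside 1.63% and 0.404% of all genes, with a median log2 fold change of 1.31. Every TGF-β1 array lay above every control for 12 of 13, beside 12.9% of all genes. Among these 12, Col4a1 was well above background on 0 of 3 control arrays. It passed the filter only through its TGF-β1 arrays, so its place in the count carries no weight. Tgfbi, a secreted matrix protein, went from 5.01 ± 0.06 to 9.59 ± 0.66 (SD, n = 3 each), which is 4.58 higher on the log2 scale (SE 0.31, adjusted p = 0.00247). Ltbp2, a microfibril-associated protein well above background on 1 of 3 control arrays, rose by 4.03 (SE 0.30, adjusted p = 0.003162), and by 1.77 with normexp background correction (adjusted p = 0.0009435). The fibronectin gene Fn1 rose by 2.22 (SE 0.34, adjusted p = 0.02793), the matricellular gene Ccn2 by 2.10 (SE 0.23, adjusted p = 0.01125), and Pmepa1 was the fifth. The calls of Fn1 and Ccn2 were each lost when 1 of several arrays was left out, and the count of the list then ran from 3 to 8.

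**Figure D4:**
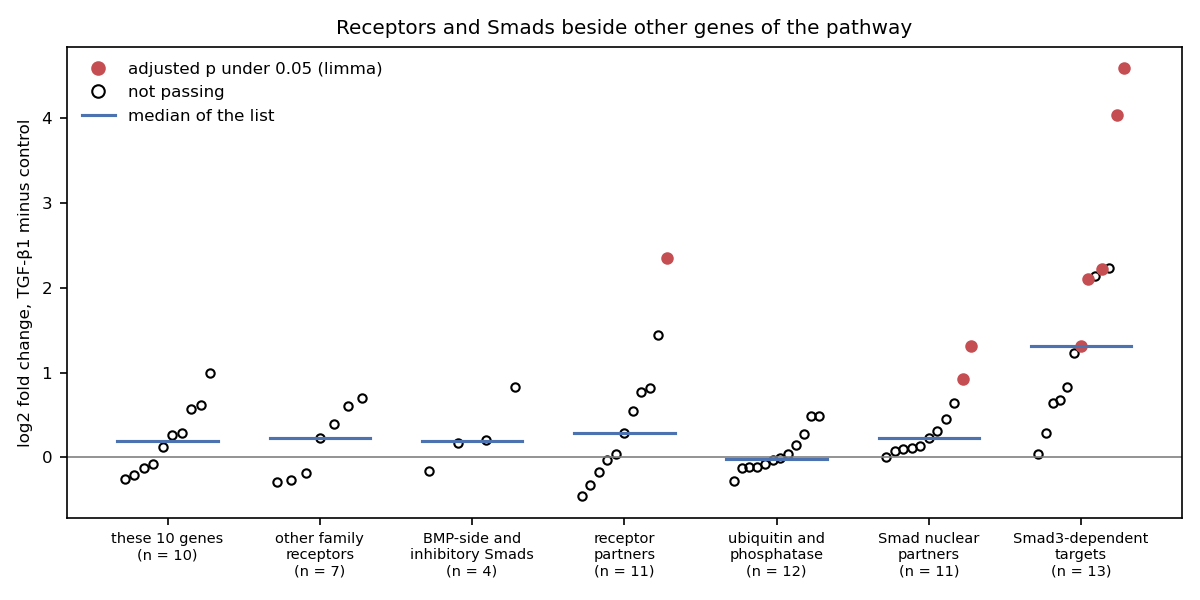
Log2 fold change (y axis, TGF-β1 minus control) of the 10 genes and of 6 lists of pathway genes, each point a gene, filled where the adjusted limma p was under 0.05, with the median of each list as a line. None of the 10 receptor and Smad genes is filled, and the median of the Smad3-dependent targets, 1.31, is the highest of the lists.

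Without TGF-β1 replicate 3 the counts that rose were 1 of 7 other receptors (Bmpr2, 0.87, adjusted p = 0.04026, limma), 0 of 4 BMP-side and inhibitory Smads, 4 of 11 receptor partners, 2 of 12 ubiquitin and phosphatase genes, 3 of 11 nuclear partners and 8 of 13 targets, and 0 fell in any of the lists. These counts stand beside 9.08% of all genes that passed as higher in the same fit.

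The genes with the highest Pearson r with Tgfbr1 over the 6 arrays were Col27a1, a fibrillar collagen chain, the myotubularin-related gene Mtmr11, and Fcgrt, the heavy chain of the neonatal Fc receptor, each at 0.99. The arrays share the treatment, and genes picked for matching a gene whose groups do not overlap will differ between the groups too, so these values are a description. Mtmr11 was 0.77 and Fcgrt 1.28 higher on the log2 scale after TGF-β1. For Col27a1, well above background on 0 of 3 controls, TGF-β1 signal was at least 7.57-fold higher, counted against the dimmest probe well above background on each array. Its r rests in part on control values without a reliable order.

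Some markers of other cell classes also differed between the groups, and their part in the receptor values was not tested. Of the 3 club cell markers, Scgb1a1 was lower (log2 fold change -2.27) and Scgb3a2 higher (1.05) without overlap, and Cyp2f2 (-0.07) overlapped. Among the 9 epithelial markers 2 did not overlap, Epcam being higher (0.82) and Elf3 lower (-0.94) after TGF-β1. Of either list 0 passed in limma. The summed signal of the 4 basal cell markers was 26430 to 44550 in the controls and 53770 to 131300 after TGF-β1, again lowest of the treated arrays in replicate 3. Krt14 made up 59.3% to 73.4% of it, and 2 of 4 markers did not overlap between the groups, beside 26.4% of all genes. In limma 0 of 4 passed the test, with 3 at an unadjusted p under 0.05, beside 22.2% of all genes. The summed signal of the 12 fibroblast markers was 970.3 to 1065 in the controls against 1293 to 3338. Dcn made up 39.2% to 65.6% of it and did not pass (log2 fold change 1.00, adjusted p = 0.2733, limma). Of the 12 markers, 3 rose (Pdgfrl, and Col1a1 and Col1a2, both well above background on 0 of 3 controls), beside 1.63% of all genes. Thy1 (2.47), Pdgfra (0.21) and Mfap4 (-0.07) did not pass and overlapped between the groups. The other 5 (Pdgfrb, Col3a1, Lum, Tcf21 and Postn) were well above background on no array. Among the 4 ciliated cell markers Foxj1, a transcription factor of motile cilia, rose by 1.47 (SE 0.10, adjusted p = 0.002386, limma), while Dnah5 (0.34), Tekt1 (0.09) and Rsph1 (-0.27) overlapped. The 10 leukocyte markers gave overlapping sums of 17480 to 20910 and 19400 to 20170. Well above background on all 6 arrays were 5 of them (Cd68, Cd14, Cd3e, Csf1r and Itgam), and Ptprc, Laptm5, Coro1a and Tyrobp were on none. Of the 5 tested 0 passed in limma, and 3 did not overlap between the groups, beside 26.4% of all genes. Cd68 (0.90) and Itgam (0.43) were higher after TGF-β1 and Cd14 (-0.40) lower.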

How the data were processed

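Spot intensities of 6 Agilent SurePrint G3 mouse arrays (1 colour, Cy3) were used as deposited by the authors, who scanned them and ran Agilent Feature Extraction 11.0.1.1 according to the submitters' processing notes. The deposited processed intensity is background-subtracted and not yet normalized between arrays. Of 62976 spots, the 59305 for transcripts were kept, spots marked as outliers were left out, and spots of 1 probe were averaged. Log2 values were normalized by quantiles, as in the study's methods. A probe was kept if well above background on at least 3 of 6 arrays (32460 of 56599), and a gene was the passing probe with the highest mean. Probes were named through the RefSeq accession (GRCm38.p6), and 32991 of them (58.29%) matched a gene symbol.

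Groups were taken from the sample titles. TGF-β1 was compared with control by limma 3.58.1 in R 4.3.3, without a block, with Benjamini-Hochberg adjustment over 14345 genes and a threshold of 0.05. With 3 arrays a group, precision is limited by their number. The 10 genes, the pathway lists and the tests were chosen with earlier results of these data known. Named were all 10 genes, of each pathway list the genes that passed and those with the largest log2 fold change in either direction, up to 3 detected genes of a marker list, and the 3 genes most correlated with the gene of smallest p. Other markers named were chosen after their values were seen. Other normalizations, filters, fits and probe rules, slide row, the methods' t-test, and leaving out each array were tried as alternatives.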

Additional observations from a re-analysis of the deposited data

How the results depend on the processing

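Over all genes tested 234 were higher and 58 lower in limma with adjustment. These counts were 59 and 15 without the filter, 399 and 108 with a trended robust variance, 2408 and 2574 with array weights, 1984 and 1862 within the first slide row, 7 and 2 by the methods' t-test with adjustment, 1304 and 1147 by that test without it, and 1641 and 1542 at an unadjusted limma p. They were 290 and 105 with the slide row as a block, 339 and 82 with normexp background correction, and 171 and 27 with a 2-fold minimum. With the replicate number as a block they were 85 and 18. Samples of the same number showed no steady shared deviation, with correlations of -0.01, 0.33 and -0.05 for replicates 1, 2 and 3. The numbers were not read as pairs, and the block changed no call among the 10 genes. Leaving out 1 array gave 49 to 1302 higher and 7 to 900 lower, the upper ends without TGF-β1 replicate 3.

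Of the 10 genes 0 passed. As higher, 1 passed with normexp background correction (Tgfbr1, beside 2.93% of all genes in either direction), 1 with the trended robust variance (Tgfbr1, 3.53%), 2 with the slide row as a block (Tgfbr1 and Acvrl1, 2.75%), 4 with array weights (34.7%) and 4 within the first slide row (26.8%), both times Tgfbr1, Tgfbr2, Acvr1 and Acvrl1, 2 by the methods' t-test without adjustment (Tgfbr1 and Acvr1, with Smad2 as 1 lower, 17.1%) and 3 at an unadjusted limma p (22.2%). Leaving out 1 array gave 0 to 3, the 3 without TGF-β1 replicate 3 (15.4%). The sign turned for Tgfbr2 within the second slide row (-0.23), for Eng with 75th percentile scaling (0.0507) and with no normalization (0.11), and for Smad4 with 75th percentile scaling (-0.0593) and with the mean of its probes (-0.17). With no normalization Smad3 was at -0.21 and Smad4 at 0.0049. The causes of these differences were not tested, except that the filter and the left-out arrays change how many genes or samples enter.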
